A study of Homo sapiens with 12 samples.

Results

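The cells described here are MDA-MB-231, a long-established line from a triple-negative human breast cancer, 48 h after transfection with 50 nM of a mimic of the minus2 isomiR of miR-183-5p. Their 3 arrays were compared with the 3 arrays of the same line transfected with a negative control oligonucleotide, so 6 of the 12 arrays of the series carry the comparison. The remaining arrays, 3 each, come from cells that received the archetype or the plus2 isomiR at the same dose and time. The archetype is the mimic with the reference ends of miR-183-5p. These arrays show where minus2 differs. They also enter the estimate of spread shared by all 4 groups and the limit on mean signal, so calls against control depend on them in part. All 4 groups share the line, the lipid reagent (Lipofectamine RNAiMAX), the dose and the time, and the control cells were transfected too. Genes were described where the mean log2 signal over the 12 arrays was above 4.54, which kept 14940 of the 22411 genes with a symbol. Whether the replicate arrays stem from separate cultures is not stated, and the p-values below therefore reflect only the spread among these arrays, part or all of which may be technical. A transfected mimic raises its small RNA far beyond what a cell makes itself, and the amount reached was not measured on these arrays.

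MicroRNAs are short RNAs that an argonaute protein holds and that pair with messenger RNAs, mostly in their untranslated 3′ regions, through the seed near the 5′ end. Pairing shortens the life of the messenger or slows its translation, so direct targets tend to fall, while genes that rise or fall further downstream follow from other changes in the cell. IsomiRs are forms of one microRNA with shifted ends, and a shift at the 5′ end changes the seed. miR-183-5p belongs to a cluster that is well known from sensory organs and is often abundant in tumours.

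The 3 mimics are shown because their seeds, in capitals (bases 2 to 8 from the 5′ end), differ.
minus2: tGTATGGCactggtagaattca
archetype: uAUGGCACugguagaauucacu
plus2: tGGCACTGgtagaattcactgt
The isomiR sequences are those of the labels, written as DNA, and the archetype is the mature hsa-miR-183-5p of RefSeq on GRCh38.p14, at chr7:129774967-129774988 on the minus strand. Bases 3 to 22 of minus2 are bases 1 to 20 of the archetype, so minus2 starts 2 bases further upstream and ends 2 bases earlier. Of the 7 seed bases of minus2, 5 also lie in the archetype's seed, moved by 2 positions. None of the other human mature microRNAs in the RefSeq table (2370 names searched) has the minus2 seed. No transcript sequences were used here, so whether the genes below carry sites that match this seed was not tested.

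The arrays of a group were close to each other. Pearson's r between arrays was 0.9984 to 0.9988 among the minus2 arrays and 0.9982 to 0.9984 among the control arrays, against 0.9941 to 0.9947 between the groups, across the tested genes, which are not independent replicates. The median SD of a gene over 3 arrays was 0.0576 log2 units in minus2 and 0.0641 in control. VIM, CD44, AXL and the other 5 markers of this mesenchymal line were all above the limit for dim genes, whereas PTPRC, the pan-leukocyte marker, lay below it (4.11 in minus2, 4.12 in control), as did DCN of fibroblasts (4.15 and 4.17). CD68 and HLA-DRA, often taken as markers of white blood cells, were bright in every group, and the summed signal of the white blood cell list was 16.34 to 16.40 on the log2 scale in minus2 and 16.51 to 16.56 in control. Of its 7 tested members CD14 rose (0.22 ± 0.06, SE, not called without minus2 replicate 1 or 3 or control replicate 2) and CD68 fell (-0.37 ± 0.08; 2 members fell without plus2 replicate 3), and none of the 3 tested fibroblast markers was called (1 rose without plus2 replicate 1 or 3). Among the other markers, KDR of endothelial cells rose by 0.35 ± 0.08, none of the 2 tested fat cell markers was called, and of 8 tested luminal markers KRT18 rose (0.34 ± 0.05) and MUC1 fell (-0.21 ± 0.06, not called without control replicate 1). All arrays are of 1 cell line, so these markers are not read as numbers of other cells. In such bulk RNA, a change in part of the cells and a change in every cell cannot be told apart.

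Minus2 changed the RNA of many genes, most of them by little. At an adjusted p under 0.05 (limma, Benjamini-Hochberg over all tested genes), 4388 genes differed between minus2 and control, which is 29.4% of those tested. Of them 2612 were higher with minus2 (17.5% of the tested genes) and 1776 lower (11.9%). Counts of rises and falls in the gene lists below are to be read against these shares. The median size of a called change was 0.289 log2 units. The arrays of minus2 and control did not overlap for 6704 genes (44.9%). Changes of at least 1.5-fold were found for 226 genes that rose (1.51%) and 263 that fell (1.76%), and those of at least 2-fold for 24 that rose (0.161%) and 65 that fell (0.435%). The share of calls that were rises, 59.5%, was 50.2% when each array was centred on its own median, so the balance of small rises and falls depends on how arrays are scaled. The largest falls exceeded the largest rises, as the plot of change against signal shows.

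**Figure D1:**
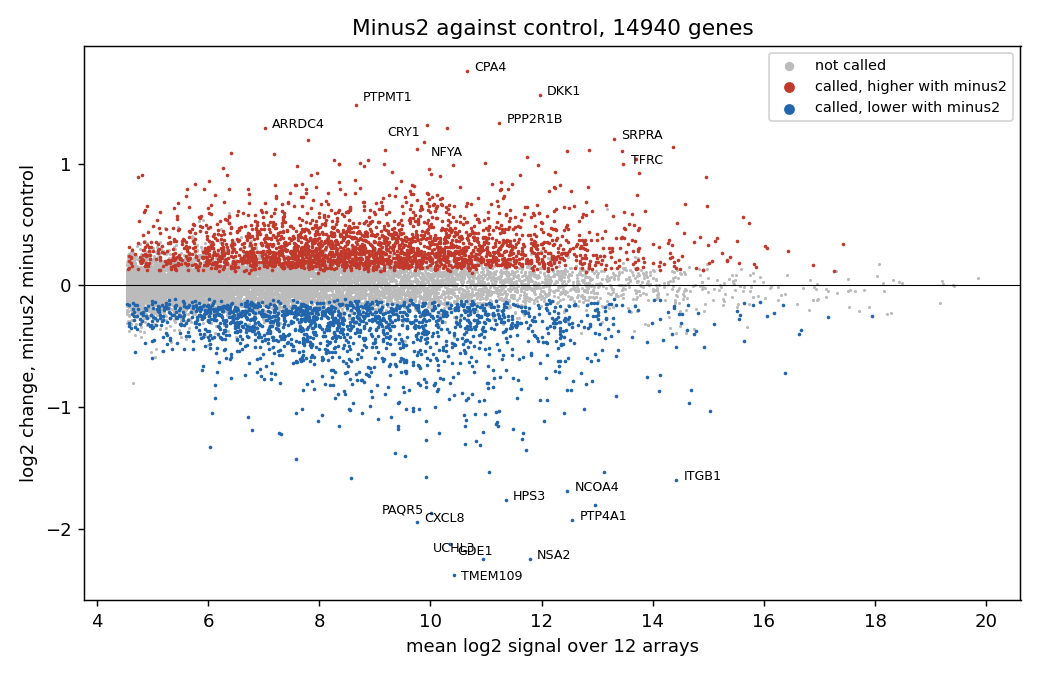
Each point is 1 of the 14940 tested genes. The horizontal axis is the mean log2 signal over 12 arrays and the vertical axis the log2 change, minus2 minus control. Genes called at an adjusted p under 0.05 are coloured (red higher, blue lower with minus2). The lowest point, TMEM109, is at -2.38 and the highest, CPA4, at 1.76.

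The deepest fall was that of TMEM109, which encodes a membrane protein of the endoplasmic reticulum and nuclear envelope. Its log2 signals were 9.02, 9.21 and 9.01 on the minus2 arrays, against 11.51, 11.42 and 11.44 on the control arrays. This is a change of -2.38 ± 0.07 (SE), or 5.19-fold lower, and the groups lay far apart. The other mimics gave means in between, 10.85 with the archetype and 10.32 with plus2, and minus2 differed by -1.77 log2 units from the archetype and by -1.24 from plus2. NSA2, a factor that joins the assembly of the large ribosomal subunit, had 9.99, 10.10 and 10.23 with minus2, against 12.42, 12.33 and 12.31 in control. Here the archetype (mean 12.21) and plus2 (mean 12.49) stayed near control (mean 12.35), and only the minus2 arrays were low. UCHL3, a hydrolase that frees ubiquitin and NEDD8 from small adducts, had 9.44, 9.48 and 9.34 with minus2, against 11.71, 11.64 and 11.64 in control. That was a change of -2.24 ± 0.05, with means of 11.33 with the archetype and 11.37 with plus2.

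GDE1, a phosphodiesterase that acts on glycerophosphodiesters, had 8.82, 8.68 and 9.14 with minus2, against 11.04, 10.93 and 11.03 in control (-2.12 ± 0.11). The minus2 arrays of this gene spread more than those of UCHL3, but the highest of them lay well below every control array. PTP4A1, a small tyrosine phosphatase also known as PRL-1, had 11.10, 11.36 and 11.20 with minus2, against 13.15, 13.09 and 13.18 in control (-1.92 ± 0.07). PAQR5, a membrane receptor for progestins, had 8.67, 8.56 and 8.73 with minus2, against 10.61, 10.46 and 10.48 in control (-1.87 ± 0.11). The means of PTP4A1 were 12.78 with the archetype, 13.08 with plus2 and 13.14 in control, and those of PAQR5 10.40, 10.47 and 10.52 in the same groups. HPS3, a subunit of the BLOC-2 complex that sorts cargo to lysosome-related organelles, fell by 1.76 ± 0.07, and its archetype mean of 11.37 lay between those of minus2 (10.16) and control (11.92). CXCL8 and NCOA4, which complete the deepest falls along with ITGB1, are described with their pathways below.

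**Figure D2:**
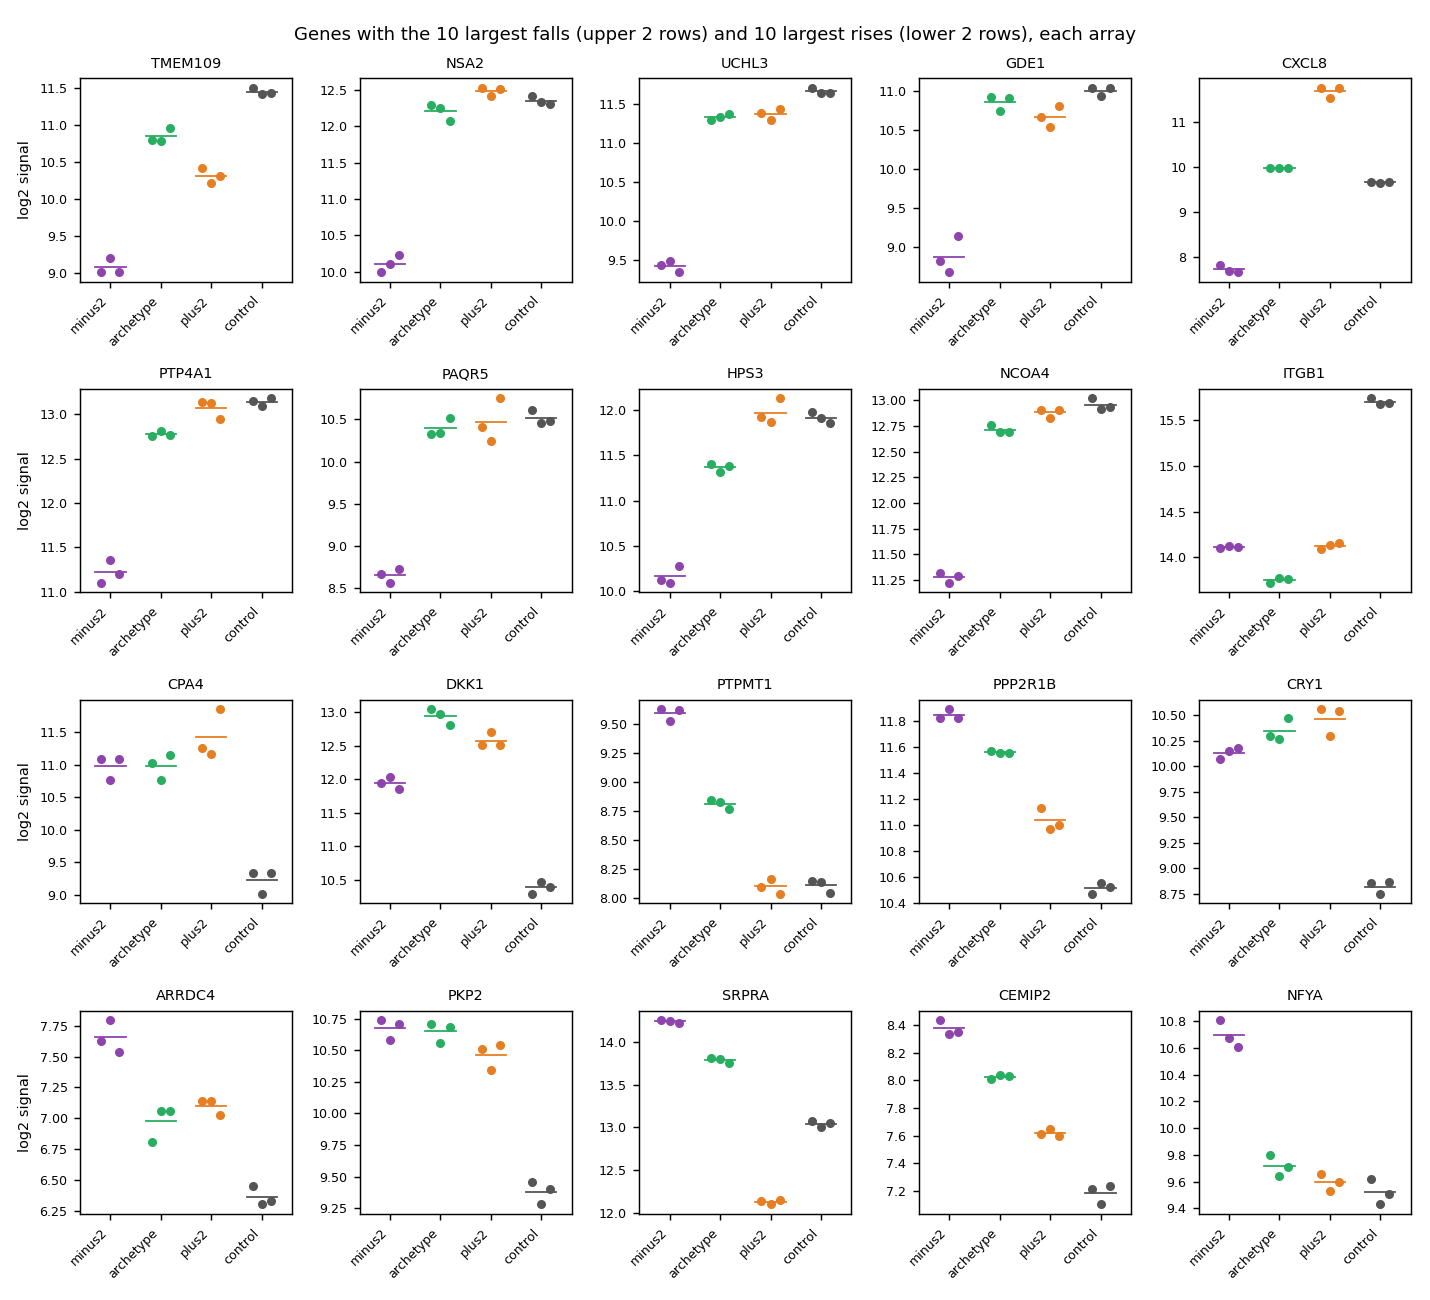
Log2 signal (vertical axis, a scale of its own in each panel) of the genes with the 10 largest falls and the 10 largest rises, on each array of minus2, archetype, plus2 and control. Points are arrays and short lines group means. For NSA2 the minus2 arrays lie between 9.99 and 10.23, those of the other 3 groups between 12.07 and 12.53. For CPA4 all mimics lie above control.

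The remaining 10 of the 20 largest falls lay between -1.28 and -1.58. TNFRSF9, the co-stimulatory receptor 4-1BB, fell by 1.58 ± 0.14. LMNB1, lamin B1 of the nuclear lamina, had 8.80, 9.05 and 8.86 with minus2, against 10.42, 10.59 and 10.40 in control (-1.57 ± 0.12), and its archetype mean was 10.38. GNAQ, the alpha subunit of the Gq protein that couples receptors to phospholipase C, had 8.48, 8.52 and 8.60 with minus2, against 9.93, 9.92 and 9.94 in control (-1.40 ± 0.05). Its means with the archetype (9.84) and plus2 (9.91) were near control. EFR3A, which anchors a phosphatidylinositol 4-kinase at the plasma membrane, fell by 1.35 ± 0.05, and SRPX, a secreted protein with sushi repeats, by 1.31 ± 0.07. CPNE3, a calcium-dependent membrane-binding protein, KYNU, the kynureninase of tryptophan breakdown, and LAPTM5, a lysosomal membrane protein, changed by -1.53 ± 0.05, -1.42 ± 0.06 and -1.53 ± 0.08, all falls. CPNE3 was also below control with the archetype (-1.16) and plus2 (-1.7), and so was KYNU (-1.08 and -0.83). For CPNE3 minus2 was higher than plus2 by 0.17 ± 0.05. IDS, the lysosomal iduronate sulfatase, fell by 1.38 ± 0.07. ATP2B4, a calcium pump of the plasma membrane, fell by 1.28 ± 0.09. For LAPTM5 and ATP2B4 the archetype mean was lower still, and minus2 was higher than the archetype by 0.35 ± 0.08 for LAPTM5 and by 0.47 ± 0.09 for ATP2B4.

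Relatives of the genes with the deepest falls moved in either direction or were not called. Their lists are short, and 17.5% of all tested genes rose and 11.9% fell. Of 6 tested PTP4A phosphatases and their CNNM partners, PTP4A1 and CNNM3 (-0.32 ± 0.06) fell and none rose, while PTP4A2 had group means of 13.04 with minus2 and 13.00 in control. PTP4A2 was lower with the other mimics, and minus2 exceeded the archetype there by 1.49 ± 0.04. PTP4A3, CNNM2 and CNNM4 were not called. The other tested UCH-type deubiquitinase, UCHL5, was not called against control (-0.10 ± 0.04). Among 6 glycerophosphodiester phosphodiesterases GDE1 was the only one that fell, and GDPD1 (0.56 ± 0.13), GPCPD1 (0.44 ± 0.05) and GDPD5 (0.16 ± 0.04, not called without minus2 replicate 3 or control replicate 2) rose, while GDPD2 and GDPD3 were not called. Of 10 PAQR receptors, 4 rose and 3 fell, with the adiponectin receptors ADIPOR1 (0.60 ± 0.04) and ADIPOR2 (0.36 ± 0.06) on the other side from PAQR5. PAQR3 (0.25 ± 0.05) and PAQR7 (0.26 ± 0.08) rose too, PAQR4 (-0.28 ± 0.06) and PAQR8 (-0.21 ± 0.06) fell, and PAQR6, MMD and MMD2 were not called. In the BLOC complexes and the AP-3 adaptor, 4 of 16 rose (25.0%) and 2 fell (12.5%, near the share of all tested genes). Apart from HPS3 no member changed by more than 0.34. BLOC1S5, the other fall of that list, was small (-0.11 ± 0.04), and without any 1 of most arrays only 1 fall was called there.

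CPA4, a secreted carboxypeptidase, rose most. Its log2 signals were 11.09, 10.77 and 11.09 with minus2, against 9.33, 9.02 and 9.33 in control, a change of 1.76 ± 0.17 or 3.38-fold. The archetype reached the same mean as minus2, 10.98, and plus2 11.42. DKK1, a secreted inhibitor of Wnt signalling, had 11.94, 12.04 and 11.86 with minus2, against 10.29, 10.47 and 10.39 in control (1.56 ± 0.08). Its means were higher still with the archetype (12.95) and plus2 (12.58), and minus2, at a mean of 11.95, was called lower than both. PTPMT1, the mitochondrial phosphatase that makes phosphatidylglycerol for cardiolipin, had 9.63, 9.53 and 9.62 with minus2, against 8.15, 8.14 and 8.05 in control (1.48 ± 0.05). Minus2 exceeded the archetype by 0.78 ± 0.05 and plus2 by 1.49 ± 0.05 for this gene.

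PPP2R1B, a scaffold subunit of protein phosphatase 2A, had 11.82, 11.89 and 11.82 with minus2, against 10.47, 10.55 and 10.52 in control (1.33 ± 0.05). ARRDC4, an alpha-arrestin that acts on glucose uptake, had 7.63, 7.80 and 7.54 with minus2, against 6.45, 6.30 and 6.33 in control (1.30 ± 0.08). Both genes were higher with minus2 than with either other mimic, PPP2R1B by 0.29 and 0.81 and ARRDC4 by 0.68 and 0.55 over the archetype and plus2. MLXIP and MLX, partners in the glucose-sensing factors that drive ARRDC4 and TXNIP, rose by 0.51 ± 0.04 and 0.47 ± 0.06, and TXNIP itself was not called (0.10 ± 0.08). ARRDC4, MLXIP and MLX were the 3 rises (37.5%), with no fall, among 8 tested genes. The list holds alpha-arrestins, their regulators and the beta-arrestin ARRB1. Of all tested genes 17.5% rose and 11.9% fell. ARRDC1, ARRDC2, ARRDC3 and ARRB1 were not called. With centred arrays, a further quantile normalisation or a replicate block, 1 member of the list fell. THBS1, the matrix protein thrombospondin 1, rose by 1.13 ± 0.09, MET, the receptor of hepatocyte growth factor, by 1.11 ± 0.05, and SEMA7A, a membrane-anchored semaphorin, by 1.11 ± 0.10. Transporters were among the largest rises, with SLC7A5 for large neutral amino acids at 1.11 ± 0.08, SLC36A1 for small amino acids at 1.09 ± 0.06 and SLC31A1 for copper at 1.04 ± 0.04. TOMM20, a receptor of the mitochondrial import machinery, rose by 1.10 ± 0.04 and LARP4, an RNA-binding protein that acts on poly(A) tails, by 1.06 ± 0.06. ADGRF1, an adhesion G protein-coupled receptor, rose by 1.12 ± 0.08 and NANOS1, a translational repressor, by 1.08 ± 0.15. For CPA4, PKP2, ADGRF1, SLC7A5, THBS1, TOMM20, NANOS1, SEMA7A, CRY1 and LARP4 the level with minus2 was not called different from that with the archetype.

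Of 11 tested chemokines 5 fell with minus2 (45.5%) and none rose. Of 22 tested genes of the NF-kB pathway 14 fell (63.6%) and 1 rose (4.55%). Among all tested genes 11.9% fell and 17.5% rose. NF-kB is a family of dimeric transcription factors that inhibitors hold in the cytoplasm until receptors release them through the kinase IKK, and its target genes include chemokines and its own inhibitors. CXCL8, the neutrophil chemokine interleukin 8, had 7.83, 7.68 and 7.66 with minus2, against 9.67, 9.65 and 9.67 in control, a change of -1.94 ± 0.06 or 3.83-fold lower. The other mimics lay on the other side of control, at means of 9.98 with the archetype and 11.68 with plus2. Minus2 therefore differed by -2.25 ± 0.06 from the archetype and by -3.96 ± 0.06 from plus2. CXCL1 had 6.29, 6.37 and 6.52 with minus2, against 7.50, 7.53 and 7.78 in control (-1.21 ± 0.09). CXCL2 had 6.98, 6.98 and 7.05 with minus2, against 7.59, 7.45 and 7.35 in control (-0.46 ± 0.10). Both act on the same receptor family as CXCL8, and in neither did the groups overlap. CCL20 fell by 0.52 ± 0.08 and CXCL3, close to the limit for dim genes at a mean of 4.63 with minus2 and 4.86 in control, by 0.23 ± 0.05. The list of 19 chemokines had a median of -0.23 over its tested members, against 0.01 over all tested genes, and CXCL11, CXCL14, CXCL16, CCL2, CCL28 and CX3CL1 were not called. With array weights, with a replicate block, or without minus2 replicate 2, 1 chemokine rose.

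All 5 chemokines were also lower with minus2 than with the archetype and than with plus2, where 11.8% and 17.8% of all tested genes were lower and 24.3% and 38.7% differed in either direction. Of 17 tested cytokines 4 fell (23.5%) and 1 rose (5.88%) against control, where 11.9% and 17.5% of all tested genes did. Rises numbered 2 without control replicate 3, archetype replicate 2 or plus2 replicate 2 or 3, and 3 with a replicate block. IL6 had 6.67, 6.71 and 6.53 with minus2, against 7.15, 7.28 and 7.21 in control (-0.57 ± 0.08), and minus2 differed from the archetype by -1.01. CSF3, a growth factor for granulocytes, fell by 0.92 ± 0.12, and the difference of minus2 to the archetype (0.24 ± 0.12) was not called. TNFSF10, the death ligand TRAIL, and CSF1 fell by 0.49 ± 0.09 and 0.43 ± 0.12 (CSF1 was not called without minus2 replicate 2 or control replicate 1), and IL24 rose by 0.58 ± 0.06. The count of falls was 7 when arrays were centred on their medians.

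The 22 tested genes of the pathway itself had a median of -0.35, and no rise was called among them without minus2 replicate 1 or control replicate 2 or 3. The adaptor MYD88, which links Toll-like and interleukin 1 receptors to IKK, had 7.77, 7.69 and 7.83 with minus2, against 8.91, 8.75 and 8.67 in control (-1.01 ± 0.07). Its means with the archetype (8.86) and plus2 (8.76) were close to that of control (8.78). Of the steps after MYD88, TAB2 fell by 0.51 ± 0.05, TAB3 by 0.34 ± 0.06 and the kinase IKBKB by 0.37 ± 0.08. Among the DNA-binding subunits NFKB1 (-0.47 ± 0.08) and NFKB2 (-0.40 ± 0.06) fell, whereas RELA (0.01 ± 0.05), REL (-0.04 ± 0.04) and RELB (-0.12 ± 0.05) were not called. Among the inhibitors, NFKBIA had 11.94, 11.85 and 11.87 with minus2, against 12.80, 12.63 and 12.79 in control (-0.85 ± 0.08). NFKBIZ fell by 0.81 ± 0.07, TNIP1 by 0.80 ± 0.06, BCL3 by 0.41 ± 0.06 and TNFAIP3, the ubiquitin-editing enzyme A20, by 0.42 ± 0.09, while NFKBIB (-0.03 ± 0.08) was not called. TNFAIP3 had means of 8.80 with the archetype and 9.05 with plus2, above the control mean of 8.16, and minus2 (7.74) differed from them by -1.07 and -1.32. TNIP1 had a mean of 10.11 with minus2 and 10.01 with the archetype.

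A short motif close to the start sites is shown because several promoters of these genes are known for NF-kB sites. The capitals mark the letters GGAATTTCC, or GGAAATTCC where the motif reads on the opposite strand, each with 20 bases on both sides, from RefSeq promoters on GRCh38.p14 and in the direction of the gene.
CXCL8: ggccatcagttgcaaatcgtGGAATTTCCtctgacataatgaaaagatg
CXCL1: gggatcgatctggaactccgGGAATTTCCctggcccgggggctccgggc
CXCL2: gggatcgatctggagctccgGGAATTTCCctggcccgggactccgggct
CXCL3: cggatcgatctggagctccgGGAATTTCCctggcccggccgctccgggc
NFKBIA: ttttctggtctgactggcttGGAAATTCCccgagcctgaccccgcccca
TNFRSF9: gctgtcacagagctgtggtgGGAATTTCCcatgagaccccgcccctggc
The stretches are chr4:73740458-73740506 (plus strand) for CXCL8, chr4:73869295-73869343 (plus) for CXCL1, chr4:74099244-74099292 (minus) for CXCL2, chr4:74038739-74038787 (minus) for CXCL3, chr14:35404802-35404850 (minus) for NFKBIA and chr1:7940884-7940932 (minus) for TNFRSF9. The motif begins between 73 and 91 bases upstream of the start in all 6. Those of CXCL1, CXCL2 and CXCL3 sit in nearly the same surroundings. The motif, chosen after the values were seen, occurs on either strand in the 250 bases upstream of 145 of 35116 RefSeq starts (0.413%). The 59 tested genes that hold it include the 6 shown, from which the motif was chosen, so their count is a description only, with 19 lower and 7 higher, where 11.9% and 17.5% of all tested genes were. ICAM1 (-0.92) and MAP3K8 (-0.52), both named here after their values were seen, also hold it. A match of letters is not a binding site.

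**Figure D3:**
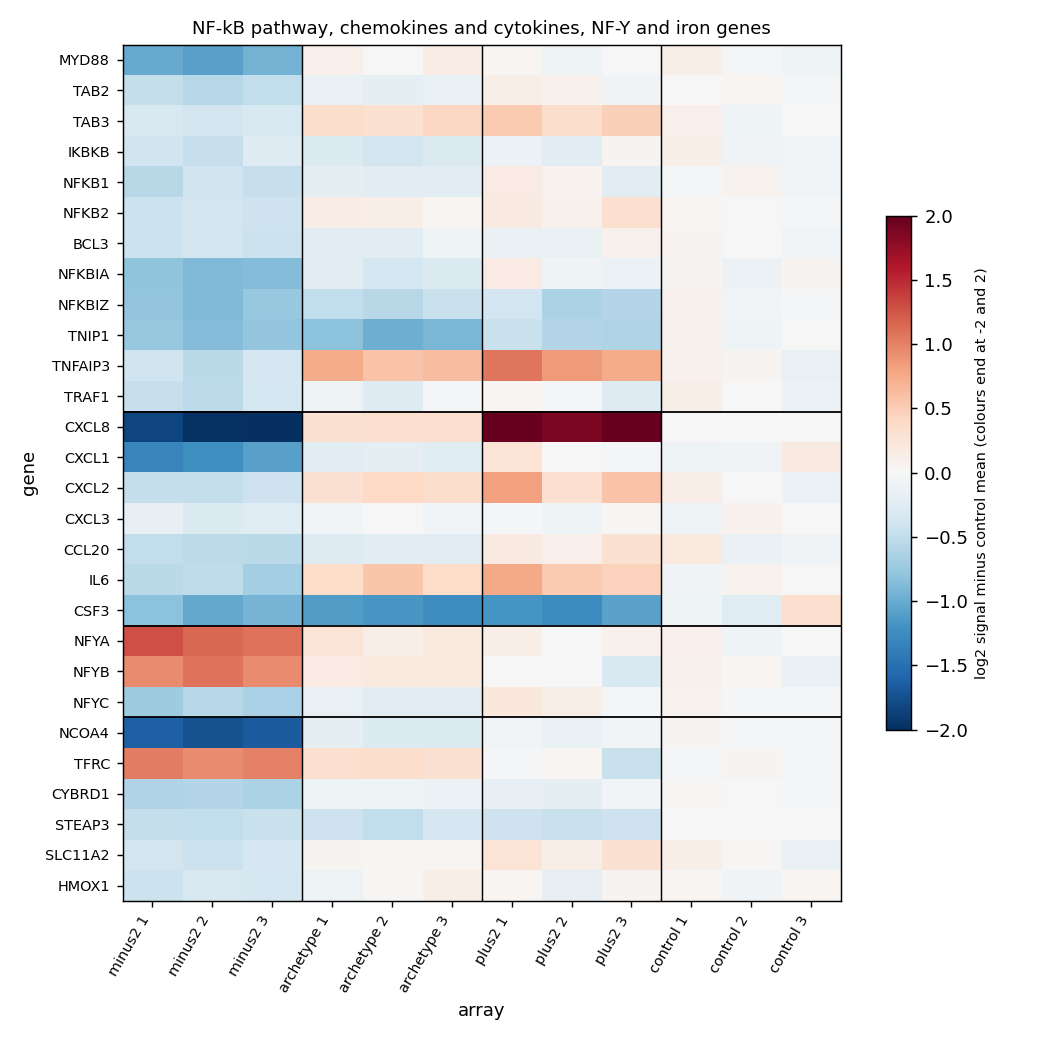
Colours give the log2 signal of each array minus the mean of the 3 control arrays, with minus2 in the left columns, then archetype, plus2 and control, and genes down the page. Colours end at -2 and 2. CXCL8 averaged -1.94 with minus2 and 2.02 with plus2, and NFYA and NFYB are red and NFYC blue in the minus2 columns.

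The receptors TGFBR2 and OSMR fell, and the lists of TGF-beta and JAK-STAT genes that hold them had calls in both directions. TGFBR2, the type II receptor of TGF-beta, had 10.33, 10.38 and 10.38 with minus2, against 11.56, 11.50 and 11.50 in control (-1.16 ± 0.04), and minus2 differed by -0.89 from the archetype and by -1.33 from plus2. SMAD3, the transcription factor that this receptor activates, fell by 0.52 ± 0.06, SKIL, an inhibitor of SMADs, by 0.56 ± 0.05, and TGFBR1 by 0.30 ± 0.05. Of 20 tested receptors and SMADs of the family, 9 fell and 4 rose, among the rises SMURF2 (0.32 ± 0.05) and ACVR2A (0.30 ± 0.06). OSMR, the receptor of oncostatin M, had 12.31, 12.14 and 12.32 with minus2, against 13.28, 13.27 and 13.26 in control (-1.02 ± 0.07). In the JAK-STAT list 9 of 26 fell and 5 rose, with STAT3 (0.31 ± 0.05) and IFNAR1 (0.27 ± 0.08, not called with centred arrays or without minus2 replicate 1 or 2 or control replicate 1 or 2) among the rises and SOCS6 (-0.38 ± 0.05) among the falls. The rises numbered 3 without minus2 replicate 1 or 2 or control replicate 1 or 3. Of 39 tested interferon response genes 15 fell and 2 rose, led by the helicase DDX60 (-0.76 ± 0.05) and the antiviral IFIT3 (-0.63 ± 0.07). That count of falls was 9 without control replicate 1. In antigen presentation on MHC class I, 3 of 17 rose (17.6%, against 17.5% of all tested genes) and 1, TAPBP, fell (5.88%, against 11.9%). The change of TAPBP was -0.31 ± 0.05. Without plus2 replicate 3, or with centred arrays, 2 fell.

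The trimeric factor NF-Y, which binds CCAAT boxes of promoters, changed in all its subunits but not in 1 direction. NFYA had 10.81, 10.67 and 10.61 with minus2, against 9.62, 9.43 and 9.51 in control (1.18 ± 0.07). NFYB had 9.04, 9.18 and 9.04 with minus2, against 8.18, 8.13 and 7.96 in control (1.00 ± 0.08). NFYC, which forms a histone-like pair with NFYB, had 7.38, 7.51 and 7.44 with minus2, against 8.16, 8.06 and 8.04 in control (-0.64 ± 0.06). In none of the 3 did the minus2 and control arrays overlap, and each differed from the archetype and from plus2 in the same direction as from control. Of the 14 tested genes of this list with general promoter factors, 7 rose (50.0%) and 2 fell (14.3%). Of all tested genes 17.5% rose and 11.9% fell, so the share of falls was near that of all genes. The rises outside NF-Y were GTF2F2 (0.68 ± 0.07), GTF2B (0.32 ± 0.06), GTF2F1 (0.29 ± 0.06), SP4 (0.22 ± 0.05) and TBP (0.21 ± 0.05). TAF1 fell by 0.16 ± 0.04, and SP1, SP3, USF1, USF2 and YY1 were not called.

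Iron genes changed in both directions. NCOA4, the receptor that carries ferritin to the lysosome so that its iron is released, had 11.32, 11.22 and 11.29 with minus2, against 13.02, 12.92 and 12.94 in control (-1.68 ± 0.05). TFRC, the transferrin receptor that brings iron in, had 14.20, 14.12 and 14.19 with minus2, against 13.15, 13.23 and 13.15 in control (0.99 ± 0.10). Both differed from the archetype and plus2 in the same direction. Of 21 tested iron genes 6 fell (28.6%) and 4 rose (19.0%), against 11.9% and 17.5% of all tested genes, so the share of rises was near that of all genes. The rises numbered 2 without minus2 replicate 3. The ferric reductases CYBRD1 (-0.60 ± 0.04) and STEAP3 (-0.47 ± 0.04), the mitochondrial iron carrier SLC25A37 (-0.40 ± 0.06), the iron transporter SLC11A2 (-0.38 ± 0.07) and the haem oxygenase HMOX1 (-0.37 ± 0.07) fell. For STEAP3 the differences of minus2 from the archetype (-0.05 ± 0.04) and from plus2 (-0.04 ± 0.04) were not called.

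Of 37 tested lysosomal proteins 5 fell (13.5%) and 2 rose (5.41%), against 11.9% and 17.5% of all tested genes, with a median of -0.04. LAMP1, a main glycoprotein of the lysosomal membrane, had 8.39, 8.18 and 8.37 with minus2, against 9.07, 9.10 and 8.96 in control (-0.73 ± 0.07). IDS, described above, fell most, and the falls numbered 10 with centred arrays, 9 after a further quantile normalisation and 3 without minus2 replicate 2. Of the 17 subunits of the V-ATPase, which acidifies lysosomes, 13 rose and none fell, with a median of 0.25. ATP6V1C1 had 13.30, 13.23 and 13.31 with minus2, against 12.64, 12.62 and 12.59 in control (0.66 ± 0.04). Its means with the archetype (13.29) and plus2 (13.42) were as high, and of the 17 subunits 3 were higher and 2 lower with minus2 than with the archetype.

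Many genes of protein synthesis rose by small amounts, where 17.5% of all tested genes rose and 11.9% fell. The calls lost with centred arrays included those of the assembly factors BRIX1, IMP4, TBL3, UTP11, WDR36 and WDR43. Of 44 tested assembly factors of the large ribosomal subunit 27 rose and 3 fell, and of 40 for the small subunit 19 rose and 3 fell, with medians of 0.24 and 0.16. FTSJ3, a methyltransferase of precursor ribosomal RNA, had 10.55, 10.57 and 10.63 with minus2, against 9.89, 9.83 and 9.89 in control (0.71 ± 0.07). DDX21, a nucleolar helicase, rose by 0.57 ± 0.06, RRS1 by 0.57 ± 0.16 (not called without minus2 replicate 1 or control replicate 1), and RIOK1, a kinase of late small-subunit maturation, by 0.63 ± 0.07. NSA2, at -2.25, stood alone among the large-subunit factors, since the other falls were small (-0.28 at most). Of 21 tested cytosolic aminoacyl-tRNA synthetases 16 rose and none fell (12 rose and 1 fell with centred arrays). GARS1, which charges the glycine tRNA, had 15.14, 15.13 and 15.10 with minus2, against 14.43, 14.52 and 14.47 in control (0.65 ± 0.04). GARS1 was as high with the archetype (mean 15.12) and plus2 (15.16). TARS1 rose by 0.59 ± 0.05, MARS1 by 0.43 ± 0.06 and IARS1 by 0.37 ± 0.05.

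Chaperones of the cytosol shared this direction, with 21 of 31 higher (67.7%) and 2 lower (6.45%), against 17.5% and 11.9% of all tested genes. HSPA4L rose by 0.71 ± 0.07, HSP90AA1 by 0.56 ± 0.06 and HSPH1 by 0.53 ± 0.07, while CCT2, a subunit of the chaperonin that folds actin and tubulin, fell by 0.70 ± 0.05. In the machinery that delivers secreted proteins to the endoplasmic reticulum 13 of 23 rose and 2 fell, and only 1 fell with no filter on signal, with a replicate block, or without any 1 of the minus2 arrays, control replicate 1 or 2, archetype replicate 1 or plus2 replicate 1 or 2. SRPRA, the receptor that docks the signal recognition particle, had 14.26, 14.24 and 14.22 with minus2, against 13.08, 13.00 and 13.05 in control (1.20 ± 0.04). With plus2 it was below control, at means of 12.13 and 13.04, so that minus2 and plus2 differed by 2.11 ± 0.04. SPCS3 of the signal peptidase rose by 0.58 ± 0.08, SEC62 by 0.46 ± 0.04 and SRP72 by 0.37 ± 0.05, and TRAM1 fell by 0.57 ± 0.05. Against the archetype 11 of these 23 were higher and 1 lower, where 12.4% and 11.8% of all tested genes were. In cardiolipin synthesis 7 of 10 rose and none fell (1 fell without minus2 replicate 3), with PTPMT1 followed by CDS1 (0.76 ± 0.11), PRELID1 (0.53 ± 0.06), TRIAP1 (0.36 ± 0.07), CDS2 (0.33 ± 0.04), CRLS1 (0.20 ± 0.05) and LCLAT1 (0.16 ± 0.04, not called without minus2 or control replicate 3), while PGS1, TAMM41 and TAFAZZIN were not called.

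SNAREs fuse vesicles with their target membranes. In a list of SNAREs and factors that act with them, 12 of 33 rose (36.4%) and 1 fell (3.03%). Of all tested genes 17.5% rose and 11.9% fell. The falls of the list numbered 3 without control replicate 3 and 2 without plus2 replicate 3. STX12, a syntaxin of endosomes, had 8.72, 8.63 and 8.51 with minus2, against 7.67, 7.66 and 7.53 in control (1.00 ± 0.07). VAMP7, a SNARE of late endosomes and lysosomes, had 10.76, 10.61 and 10.77 with minus2, against 9.71, 9.84 and 9.63 in control (0.99 ± 0.07). The fall was that of NAPG, gamma-SNAP, a factor that acts with SNAREs. It had 9.86, 9.86 and 9.87 with minus2, against 10.77, 10.84 and 10.75 in control (-0.92 ± 0.04). NAPG was near control with the archetype (mean 10.82), whereas STX12 was as high with the archetype (8.59) and plus2 (8.60) as with minus2 (8.62). NSF, the ATPase that works with gamma-SNAP, rose by 0.46 ± 0.06.

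**Figure D4:**
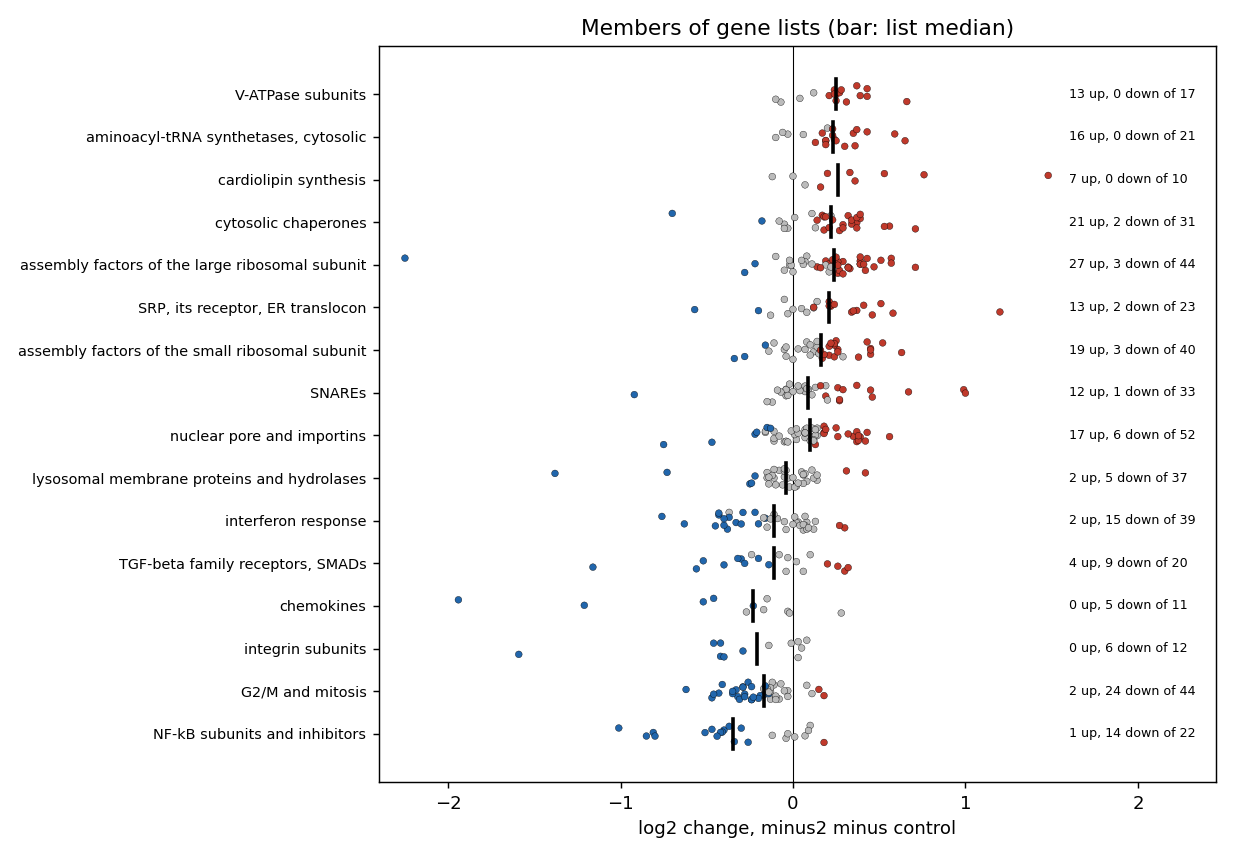
Each point is a tested member of a gene list and the horizontal axis its log2 change, minus2 minus control. Red and blue points are called higher and lower, grey points are not called, and the black bar is the list's median. The V-ATPase and tRNA synthetase rows hold no blue point, and the chemokine and integrin rows no red one.

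The list of G2/M and mitosis had 44 tested members, with 24 called lower (54.5%), 2 called higher (4.55%) and a median of -0.17. Of all tested genes 11.9% were lower and 17.5% higher. No rise was called with centred arrays, after a further quantile normalisation, or without minus2 replicate 2 or 3 or control replicate 3, and 1 without minus2 replicate 1 or control replicate 2. KIF23, a kinesin of the midbody, had 12.28, 12.37 and 12.34 with minus2, against 12.93, 13.02 and 12.91 in control (-0.62 ± 0.08). CENPE, a kinesin of the kinetochore, fell by 0.47 ± 0.10, DLGAP5 by 0.43 ± 0.05 and ASPM, a spindle pole protein, by 0.41 ± 0.04. KIF23 was also lower with minus2 than with the archetype (-0.57 ± 0.08), whereas CENPE, DLGAP5 and ASPM did not differ from the archetype at the threshold. No cell counts or cycle stages were among the data, so the share of dividing cells was not tested.

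Counts in the adhesion lists are to be read against the 17.5% of all tested genes that rose and the 11.9% that fell. Adhesion genes changed most at ITGB1, the beta 1 subunit of many integrins. Its log2 signals were 14.10, 14.12 and 14.11 with minus2, against 15.74, 15.68 and 15.69 in control (-1.59 ± 0.04). The archetype (mean 13.75) and plus2 (mean 14.13) were as low or lower, and minus2 exceeded the archetype by 0.35 ± 0.04. Of the 2 other transcript clusters with this symbol, both dim, 1 was lower with minus2 (means of 5.56 and 5.83) and 1 nearly level (3.41 and 3.36). Among 12 tested of 24 integrin subunits 6 fell and none rose (1 rose after a further quantile normalisation), the others being ITGB3 (-0.46 ± 0.10), ITGA1 (-0.42 ± 0.10), ITGA2 (-0.42 ± 0.09), ITGA5 (-0.40 ± 0.08) and ITGAV (-0.29 ± 0.05). ITGA3, ITGA6, ITGAE, ITGB2, ITGB4 and ITGB5 were not called. Desmosomal genes split, with 4 rises and 4 falls among 10. PKP2, a plaque protein, rose by 1.29 ± 0.07, PPL by 0.56 ± 0.07, PKP4 by 0.31 ± 0.05 and PKP3 by 0.14 ± 0.05. The call of PKP3 was lost under 11 of the alternatives, among them centred arrays, no filter on signal and leaving out any 1 minus2 array. The cadherins DSG2 (-0.78 ± 0.05) and DSC2 (-0.45 ± 0.04) fell with DSP (-0.37 ± 0.05) and JUP (-0.28 ± 0.07), and PERP and EVPL were not called. Of 5 tested epithelial junction markers CLDN7 (-0.56 ± 0.14) and CLDN4 (-0.15 ± 0.05) fell, with only 1 fall called when any 1 of the control arrays, minus2 replicate 2 or 3, or archetype replicate 1 or 3 was left out, and CDH1, close to the limit for dim genes, EPCAM and CLDN3 were not called. Among the markers of the line MSN (-0.51 ± 0.04), CD44 (-0.45 ± 0.05) and TGFBI (-0.17 ± 0.06) fell and ANXA1 rose (0.39 ± 0.05). The call of TGFBI was lost with no filter on signal and without minus2 replicate 2 or 3, any 1 control or archetype array, or plus2 replicate 1. Of 9 tested hyaluronan genes CEMIP2, a hyaluronidase of the cell surface, rose by 1.19 ± 0.05, while its relative CEMIP fell by 0.54 ± 0.08, as did HMMR (-0.46 ± 0.09) and the receptor CD44, and HAS2, HAS3, HYAL2, HYAL3 and UGDH were not called.

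The circadian and Wnt lists each held a large rise and had calls in both directions. In both lists the share of rises was near the 17.5% of all tested genes that rose, and 11.9% of all tested genes fell. CRY1, a repressor of the clock, had 10.07, 10.15 and 10.18 with minus2, against 8.85, 8.75 and 8.86 in control (1.31 ± 0.08). Of 20 tested clock genes 3 rose and 8 fell, with BHLHE40 (-0.74 ± 0.11), NPAS2 (-0.72 ± 0.06) and PER3 (-0.62 ± 0.04) lowest. Neither CRY1 nor PER3 was called different between minus2 and the archetype. Of 19 tested secreted Wnt antagonists and receptors 4 rose and 5 fell, and the rises numbered 2 without minus2 replicate 1 or control replicate 2 or 3. Opposite to DKK1, the co-receptor LRP6, to which it binds, fell by 0.77 ± 0.04, and the R-spondin receptor LGR4 fell too (-0.89 ± 0.07). Of 8 tested metallocarboxypeptidases, CPA4 rose and AGTPBP1 fell (-0.31 ± 0.05), and latexin (LXN), an inhibitor of carboxypeptidases, was not called (0.19 ± 0.10), nor were CPA1, CPD, CPE, CPM and AGBL5. Without plus2 replicate 1 or 3, 2 members of the list fell.

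To ask which genes set minus2 apart from every other group, minus2 was tested against control, archetype and plus2 in turn. These 3 comparisons share the minus2 arrays. Minus2 was higher than each of the other groups for 795 genes (5.32% of those tested) and lower than each for 772 (5.17%). Ranked by the smallest of the 3 differences, the lowest were NSA2, CXCL8, UCHL3, GDE1, PAQR5, PTP4A1, NCOA4, GNAQ, CST7 and TMEM109. The difference of NSA2 was -2.25 from control, -2.10 from the archetype and -2.38 from plus2. CST7, cystatin F, an inhibitor of cathepsins, had 8.70, 8.95 and 8.84 with minus2, against 10.08, 10.13 and 10.07 in control (-1.27 ± 0.10), with no overlap.

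On the other side stood NFYA, NFYB, PTPMT1, LIPH, KAT2B, CHAC2, ARHGAP18, TFRC, EIF4EBP2 and MTF1. LIPH, a lipase that makes lysophosphatidic acid, had 10.20, 9.87 and 10.11 with minus2, against 9.36, 9.26 and 9.35 in control (0.74 ± 0.09). KAT2B, the histone acetyltransferase PCAF, had 9.80, 9.74 and 9.77 with minus2, against 9.14, 9.01 and 9.01 in control (0.72 ± 0.06). The archetype mean of LIPH, 8.97, lay below its control mean of 9.33. ARHGAP18, which switches off RHOA, rose by 0.72 ± 0.06, and its archetype mean of 10.28 was below the control mean of 10.79. EIF4EBP2, a repressor of cap-dependent translation, rose by 0.65 ± 0.06, and its plus2 mean of 11.73 was below the control mean of 12.68. CHAC2, which degrades glutathione, rose by 0.79 ± 0.11, and MTF1, the zinc-sensing factor of metallothionein genes, by 0.65 ± 0.06.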

How the data were processed

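RNA of 12 arrays was analysed. The authors deposited a log2 signal per feature and array, a scale read from the range of values (1.79 to 19.9). Per the submitters' processing notes, the tools include RMA and Affymetrix Expression Console 1.4.1, with no settings given, and the build is not given in the sources used here. RMA quantile-normalises, and 100 ng of RNA was labelled per array, so total RNA per cell cannot be compared. Precision is limited by the number of arrays.

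Of 67528 transcript clusters, 23781 had 1 gene symbol in the platform annotation, 1543 several and 42204 none, and only the first were used. Symbols were updated through a RefSeq table (306 changed, 22407 of 22411 genes found). Of several clusters per gene the brightest was kept. The limit of 4.54 kept the upper 66.7% of gene means. limma 3.58.1 (R 4.3.3, lmFit and eBayes) fitted the 4 group means on all 12 arrays. Adjusted p-values (Benjamini-Hochberg over the tested genes of a comparison) under 0.05 were called. Errors of changes are standard errors. The fit was tested on simulated data. With 3 arrays a side the smallest two-sided p of an exact permutation is 0.1, so it was not used. Alternatives changed the filter, scaling, weights, prior, clusters, arrays in the fit and a replicate block, and left out each array. Replicate numbers in the labels were not taken as pairs.

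Named genes are the 20 largest called falls and rises with non-overlapping arrays (uncharacterised loci, small RNAs and antisense transcripts passed over), up to 6 called members of each list and the tested members of lists with at most 14, the 10 genes in each direction that differ from all other groups, and cell type markers, of which most that were not called are given as counts only. Some members of lists are named beyond this as partners of those genes, chosen after their values were seen. The members and lists were chosen with earlier results of these data known, from general knowledge of gene roles, and list counts are descriptions without a test.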

Additional observations from a re-analysis of the deposited data

How the results depend on the processing

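The counts of called genes against control (all, higher, lower, and those past 1.5-fold and 2-fold), against the archetype and plus2 (all, higher, lower) and apart from all 3 groups stayed within 1.5 times their values under each alternative run, some of which were added after the data were seen, and no gene called against control both as reported and under an alternative turned its direction. Against control, calls numbered 3909 with no filter on signal, 4466 with a filter at the median (5.56), 4497 with only the 2 groups in the fit, 4534 with centred arrays, 4542 after a further quantile normalisation and 5088 with array weights. Leaving out each array in turn gave 3557 to 4774 calls against control, 2809 to 2995 against the archetype and 4940 to 5524 against plus2, fewer arrays being a limit of their own. With a replicate block calls numbered 4651, and deviations of same-numbered minus2 and control arrays correlated at 0.109, 0.102 and -0.0145, against -0.143 to 0.0528 for other numbers. Of these 6 arrays 4 correlated best with their own number. Same-numbered arrays of any 2 groups correlated at -0.0446 to 0.269. For replicates 1 and 2 every such value was positive, from 0.0337 upwards, while those of replicate 3 had either sign. The labels give no shared culture, day or batch for equal numbers, so the numbers were not taken as pairs. For CPA4 replicate 2 was the lowest array in minus2 (10.77), control (9.02), archetype (10.77) and plus2 (11.16). Its SE of 0.17 comes from the fit without pairs. A shared batch of some replicates was not tested further. Omissions of archetype and plus2 arrays were added after the data were seen. The leading genes kept their calls under every alternative run. They were picked from these same values for large called changes, so this followed largely from their selection and is no separate support. Of 539 called genes, list members together with the leading genes, 125 lost their calls under at least 1 alternative, mostly small changes. List counts that moved by over 1.5 times without 1 array are given beside those counts in the text. Genes near the limit of 4.54, such as CXCL3, are compressed towards background.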

Other observations

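Phosphatases and small GTPases held changes of either direction, where 17.5% of all tested genes rose and 11.9% fell. Of 20 tested PP2A genes 7 rose and 5 fell (4 rose and 3 fell without minus2 replicate 3, and 3 fell without control replicate 2), with PPP2R1B above and the catalytic subunit PPP2CB (-0.73 ± 0.04) and the methylesterase PPME1 (-0.69 ± 0.08) below control. PPME1 had 10.00, 10.18 and 10.10 with minus2, against 10.76, 10.81 and 10.79 in control, and its means with the archetype (12.17) and plus2 (11.45) were above control, so that minus2 differed from the archetype by -2.08. Of 22 classical tyrosine phosphatases 5 rose and 8 fell, the rises led by PTPN13 (0.82 ± 0.07), PTPN14 (0.77 ± 0.04) and PTPN1 (0.74 ± 0.05). Of 26 dual-specificity phosphatases 9 rose and 5 fell, with DUSP5 lowest (-0.67 ± 0.09). Of 45 RAB GTPases 12 rose (7 without minus2 replicate 3) and 7 fell. RAB38, which acts in lysosome-related organelles as HPS3 does, had 5.73, 5.46 and 5.75 with minus2, against 6.69, 6.70 and 6.70 in control (-1.05 ± 0.08), and RAB12 fell by 0.95 ± 0.05.

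Other lists were mixed, and their counts are to be read against the 17.5% of all tested genes that rose and the 11.9% that fell. For the autophagy, nuclear pore, COP coat and ubiquitin lists the share of falls was near that of all genes. The share of rises was near that of all genes for the matrix protease list and for the NRF2 and glutathione list. Among matrix proteases and inhibitors 3 of 20 rose and 8 fell, with TIMP3 (-0.78 ± 0.08), MMP14 (-0.76 ± 0.05) and the urokinase receptor PLAUR (-0.51 ± 0.07) among the falls. Among p53 targets 8 of 21 rose and 6 fell (3 without minus2 replicate 2 or control replicate 1), with PMAIP1 (0.81 ± 0.09) and RRM2B (-0.83 ± 0.05) at the ends. Of 30 NRF2 and glutathione genes 6 rose and 6 fell, and SLC7A11, the cystine transporter, rose by 0.63 ± 0.07. Of 43 autophagy genes 14 rose and 5 fell, with EI24 (-0.85 ± 0.06) and ATG3 (-0.59 ± 0.04) lowest. Of 52 nuclear pore and importin genes 17 rose and 6 fell (10 fell with centred arrays), with NUP58 lowest (-0.75 ± 0.06). Of 35 genes of the COP coats and cargo receptors 13 rose and 4 fell (7 with centred arrays), led by ARCN1 (0.43 ± 0.04). Of 35 ubiquitin, SUMO and NEDD8 enzymes 11 rose and 4 fell, and the rises numbered 7 without control replicate 2. Of 21 argonaute and microRNA processing genes 7 rose and 5 fell (2 without minus2 replicate 2 or control replicate 1 or 2, 3 without minus2 replicate 3), with DICER1 (0.52 ± 0.05) highest.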
